A study of Mus musculus with 8 samples.

Results

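Gene expression was compared between whole spines of wild-type (WT) mice and of mice carrying the Pax1-Enh knockout (KO), with the sexes combined, and the genes described here are those whose values did not overlap between the genotypes. A gene was included when all 4 KO libraries lay above, or all 4 lay below, all 4 WT libraries in CPM, read counts scaled to library size with factors from the trimmed mean of M-values method (TMM). Of 18104 genes that passed a filter on low counts, 601 met this rule (3.32%), 305 with every KO library above every WT library (1.68%) and 296 with every KO library below (1.63%). If the genotype labels made no difference, complete separation of 4 against 4 libraries would have a probability of 0.0286 per gene. The share of 3.32% is near this value, so the count alone does not show a shared difference. Over the whole table of 27179 genes the rule held for 691, and the filter removed 90 of them. The rule uses the KO against WT contrast itself, so the levels and fold changes of these genes are a description, and a test of the same contrast adds no support to the choice. Gene length, gene position and promoter sequence were not used by the rule.

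The spines came from mouse embryos at stage E18.5, shortly before birth. There were 2 libraries each of male WT, female WT, male KO and female KO spines. The knockout is named in the labels only as Pax1-Enh, the series title places the deleted stretch at a genomic region of Pax1 tied to adolescent idiopathic scoliosis, and strain, litter and the coordinates of the deletion were not stated there. A whole spine is a mixed tissue: vertebral cartilage and bone, discs, marrow, spinal cord and any attached muscle and fat are measured together. Whether each replicate was a different embryo is not stated, and p-values therefore reflect only how these samples varied.

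Pax1 is a transcription factor of the sclerotome, the part of the somite that forms vertebral bodies and intervertebral discs. Late in gestation the vertebral cartilage is being replaced by bone: chondrocytes lay down a collagen and proteoglycan matrix, osteoclasts resorb mineralised cartilage, and osteoblasts and osteocytes make and maintain bone. Hox genes give each level of the axis its identity, with low-numbered paralog groups active towards the head and high-numbered groups towards the tail. Brown adipose tissue, which forms around the upper back before birth, burns fat in mitochondria to make heat.

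Library totals were 35181518 to 48021848 counts in WT and 59722279 to 67575728 counts in KO. Every KO library was thus deeper than every WT library (exact permutation test, two-sided, p = 0.0286, the smallest p that 70 assignments of 4 against 4 allow), so depth and genotype cannot be told apart. Mitochondrially encoded genes took 5.55% to 20.9% of counts in WT libraries and 4.56% to 15.6% in KO libraries, and the genotypes overlapped (exact permutation test, two-sided, p = 0.514). The summed CPM of a list of 16 sclerotome and somite factors ran from 213 to 264 in WT and from 201 to 284 in KO, so the labelled tissue showed its defining transcripts in each library. An amount of 3 counts corresponded to 0.0392 to 0.0831 CPM.

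Pax1 itself (Entrez gene 18503, mm10 chromosome 2, 147361930 to 147375049) was not among the 601 genes. Its WT libraries held 20.4, 17.0, 27.0 and 18.6 CPM and its KO libraries 28.3, 18.9, 30.4 and 19.9 CPM (each series here and below in the order male 1, male 2, female 1, female 2). The genotypes overlapped, and the log2 fold change of 0.24 (SE 0.22) did not pass edgeR's quasi-likelihood test with Benjamini-Hochberg adjustment (adjusted p = 0.923). Because the labels do not place the deleted stretch inside the Pax1 transcript, this level does not check the labels. Of 16 tested genes around Pax1 on chromosome 2, the only one without overlap was Thbd, which encodes thrombomodulin, a receptor on vessel walls that restrains clotting. Its 4 WT libraries lay between 32.5 and 35.8 CPM and its 4 KO libraries between 36.7 and 46.5 CPM. The nearest libraries were 1.02-fold apart, and with library totals alone in place of TMM factors Thbd did not keep its place. This 1 gene is 6.25% of the 16, against 1.68% of all tested genes that were higher without overlap.

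In the additive fit of sex and genotype no gene passed edgeR's quasi-likelihood test at an adjusted p of 0.05 (0 of 18104, 0%). At an unadjusted p under 0.05 edgeR found 1237 genes (6.83%), of which 515 were higher (2.84%) and 722 lower in KO (3.99%), and the smallest adjusted p was 0.454. limma voom also called 0 genes (0%). DESeq2 with the same design called 141 (0.779%), 29 higher in KO (0.16%) and 112 lower (0.619%). Of the genes DESeq2 called, 100 were among the 601, 16 of them higher and 84 lower. The count of non-overlapping genes also depended on the scaling of the libraries. With library totals alone in place of TMM factors, 256 genes lay wholly above and 162 wholly below, and only 101 and 99 of these were shared with the TMM sets. Under each of 4 scalings (TMM, relative log expression, library totals, and TMM without mitochondrially encoded genes) 99 higher and 99 lower genes kept their place. These are called scaling-stable below. The median log2 fold change of all genes moved by no more than 0.044 from 0 under these scalings.

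The 296 lower genes differed by larger amounts than the 305 higher genes. Their median log2 fold change was -0.76, against 0.49 for the higher genes and a median size of 0.19 over all tested genes. A 2-fold difference was exceeded by 106 of the lower genes and 23 of the higher genes, and by 541 of all 18104 tested genes. The genes at the edge of the rule differed little from those just past it. Among higher genes, Galnt5 just met it, with a lowest KO library of 6.998 CPM against a highest WT library of 6.997 CPM, and Pde5a just missed it, at 24.60 against 24.61 CPM. Among lower genes, Rsph3a just met the rule with a highest KO library of 9.712 against a lowest WT library of 9.716 CPM, and Vps45 just missed it with 25.05 against 25.02 CPM.

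Transcripts of fat cells were among the lower genes with large differences. Adipoq (Entrez gene 11450, chromosome 16, 23146536 to 23157968), which encodes the adipocyte hormone adiponectin, was at 168, 40.1, 60.5 and 327 CPM in WT against 16.0, 8.90, 12.6 and 8.03 CPM in KO. All KO libraries were low and close together, while male WT replicate 1 and female WT replicate 2 stood far above the other WT libraries. The log2 fold change was -3.65 (SE 0.65), with edgeR's adjusted p at 0.454 and DESeq2's at 7.61e-08. Pparg, the nuclear receptor that drives adipocyte formation, was at 38.6, 8.86, 22.8 and 98.0 CPM in WT and 7.06, 7.75, 7.23 and 6.39 CPM in KO. Male WT replicate 2 was thus 1.14-fold above the highest KO library. Lgals12, a galectin of lipid droplets, was at 11.3, 3.71, 6.23 and 27.4 CPM in WT and 1.25, 0.464, 0.893 and 0.797 CPM in KO.

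Of 18 tested genes in an adipocyte list, 7 were non-overlapping and lower (Adipoq, Fabp4, Cidec, Lep, Pparg, Lgals12 and Agpat2) and 0 higher, with a median log2 fold change of -2.45 over the list against -0.0077 over all tested genes. The 7 are 38.9% of the list, against 1.63% of all tested genes that were lower without overlap. Scaling-stable members were Adipoq, Fabp4, Cidec, Pparg and Lgals12. The other 11 overlapped, among them Plin1, which coats lipid droplets (log2 fold change -4.35, SE 1.11), and Slc2a4, the insulin-regulated glucose transporter (0.01, SE 0.39). Lep, the gene for leptin, was the one defining marker with 0 counts in a library (male KO replicate 2). Summed over the list, CPM ranged from 1280 to 6729 in WT and from 681 to 1400 in KO, so the sums overlapped. In bulk tissue, fewer cells of a type and less RNA per cell cannot be told apart. When male WT replicate 1 and female WT replicate 2 were both left out, an alternative chosen after seeing the data, the list's median was -0.92, Adipoq's log2 fold change was -2.12, and 7 members were lower and 1 higher. Over all tested genes, 3.82% were lower and 5.53% higher without these 2 libraries. How much fat each dissected spine held was not recorded in the labels, and its part in these values was not tested.

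The 3 non-overlapping brown fat genes were again highest in female WT replicate 2 and male WT replicate 1. Ucp1 (Entrez gene 22227, chromosome 8, 83290348 to 83298456), the uncoupling protein through which brown fat makes heat, was at 420, 49.6, 31.7 and 889 CPM in WT and 10.3, 2.06, 1.45 and 7.62 CPM in KO. The lowest WT library was 3.09-fold above the highest KO library, and WT libraries differed among themselves by more than that. The mean was 65.0-fold lower in KO (348 ± 403 against 5.35 ± 4.29 CPM, SD, n = 4 each), with a log2 fold change of -5.95 (SE 1.26) that became -2.89 without male WT replicate 1 and female WT replicate 2. Cidea, a lipid droplet protein of brown fat, was at 316, 38.6, 80.0 and 671 CPM in WT and 12.2, 8.69, 10.8 and 19.4 CPM in KO. Otop1, a proton channel abundant in brown fat, was at 6.02, 1.45, 2.61 and 17.7 CPM in WT, and its KO libraries held 20, 1, 1 and 28 counts. These 3 were the non-overlapping genes of 12 tested in the brown fat list (25%, against 1.63% of all tested genes). The list's median was -1.32, or -0.14 without male WT replicate 1 and female WT replicate 2. Prdm16 and Ppargc1a, regulators of the brown fat programme, overlapped between genotypes with log2 fold changes of -0.40 (SE 0.30) and 0.18 (SE 0.26).

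**Figure D1:**
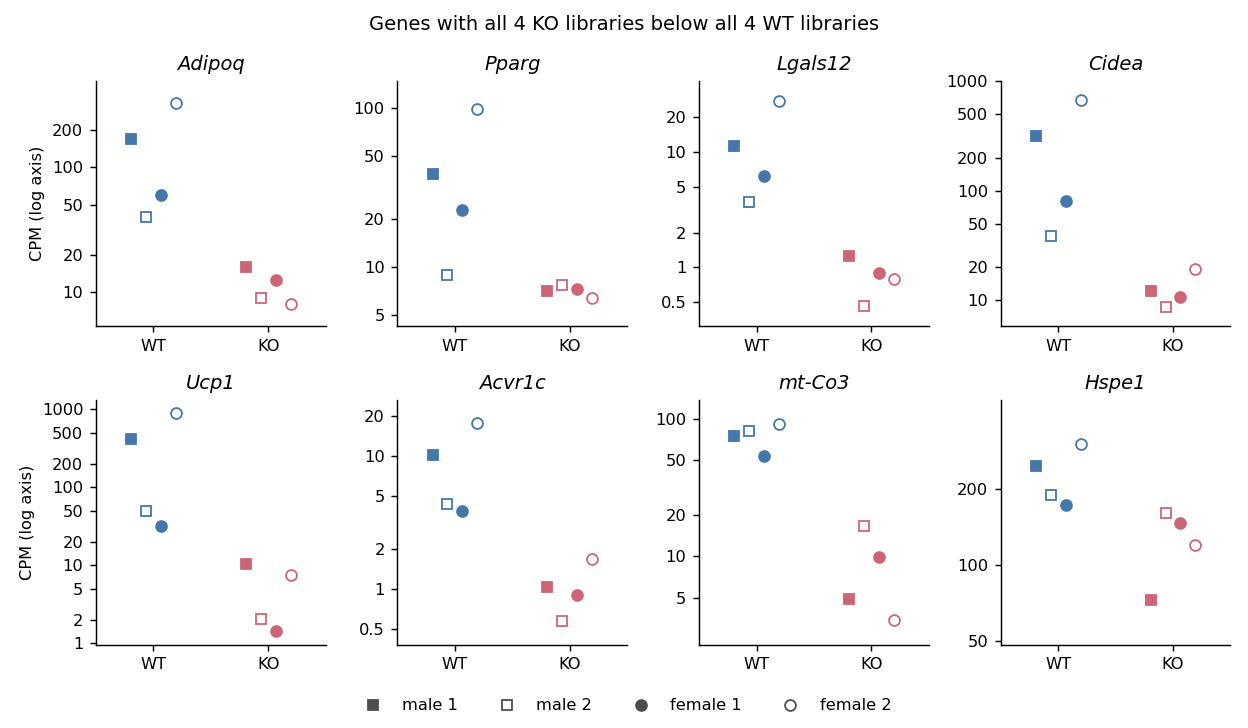
Values in CPM (log axes) of 8 genes whose 4 KO libraries lie below their 4 WT libraries, with WT in blue and KO in red, males as squares, females as circles, replicate 1 filled and replicate 2 open. In all 8 panels female WT replicate 2 is the highest library, as for Ucp1 at 889 CPM. For mt-Co3 all WT libraries lie between 53.9 and 92.5 CPM.

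Other lower genes with large differences are also known from fat. Adig, named for its induction in adipocyte differentiation, was at 27.3, 4.06, 11.5 and 85.8 CPM in WT and 1.22, 0.223, 0.428 and 1.31 CPM in KO. Ces1d, a carboxylesterase that acts on stored triglyceride, differed by -5.06 on the log2 scale (SE 0.90), and Gpd1, a glycerol phosphate dehydrogenase of the cytosol, by -3.73 (SE 0.89). Gpd1 was not scaling-stable. Acvr1c, an activin receptor found in fat, was at 10.2, 4.34, 3.87 and 17.7 CPM in WT and 1.05, 0.576, 0.911 and 1.68 CPM in KO. The long noncoding RNA Lncbate10 had 477, 71, 112 and 1171 counts in WT and 12, 4, 4 and 32 counts in KO. Rnase1, a secreted pancreatic-type ribonuclease, differed by -5.03 on the log2 scale (SE 1.87), but its WT mean rested on female WT replicate 1 at 33.3 CPM, with 0.173 to 0.332 CPM in the other WT libraries and 0.0569 to 0.125 CPM in KO. In the same female library the summed CPM of 12 tested pancreas genes reached 2165, against 6.58, 8.35 and 11.6 in the other WT libraries and 6.39 to 7.52 in KO, and none of these 12 was non-overlapping.

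Genes of mitochondrial fatty acid oxidation, which breaks down fatty acids for respiration, formed a list drawn up after their values were seen. Of 18 tested, 8 were non-overlapping and lower (Etfa, Acadm, Eci1, Acaa2, Slc25a20, Etfdh, Decr1 and Echs1) and 0 higher, while 1.63% of all tested genes were lower without overlap. The median log2 fold change was -1.59, or -0.43 without male WT replicate 1 and female WT replicate 2. Acadm, the medium-chain acyl-CoA dehydrogenase, was at 491, 180, 164 and 715 CPM in WT and 112, 141, 136 and 114 CPM in KO. Eci1, an enoyl-CoA isomerase, ranged from 58.4 to 398 CPM in WT and from 32.2 to 35.3 CPM in KO. Cpt1a, the carnitine palmitoyltransferase of liver type, was the 1 gene of the list with a positive difference (0.45, SE 0.25) and overlapped. Of 22 nuclear genes for respiratory chain subunits 0 were non-overlapping, yet all 22 had a log2 fold change below 0 (median -0.60), against 48.9% of tested genes above 0. Without male WT replicate 1 and female WT replicate 2 that median was -0.10.

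The gene with the smallest p in edgeR was mt-Co3 (Entrez gene 17710, mitochondrial genome, 8607 to 9390), which encodes subunit III of cytochrome c oxidase. It was at 75.3, 81.3, 53.9 and 92.5 CPM in WT and 4.93, 16.6, 9.98 and 3.43 CPM in KO, a log2 fold change of -3.16 (SE 0.46, edgeR's adjusted p = 0.454, DESeq2's adjusted p = 3.00e-09). The groups were 3.24-fold apart at their nearest libraries. Of 15 tested mitochondrially encoded genes mt-Co3 was the only one without overlap, and a list of 13 of them had a median of -0.24. The 13 genes together held 38303 to 215252 CPM in a library, so mt-Co3 was counted at a small part of the mitochondrial total in every library, and the labels do not say how reads in this compact genome were assigned to genes.

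Hspd1 and Hspe1, which encode the mitochondrial chaperonin HSP60 and its co-chaperonin HSP10, were the 2 non-overlapping genes among 13 tested heat shock genes (15.4%, against 1.63% of all tested genes). They are divergent neighbours on chromosome 1 (Entrez genes 15510 and 15528). Hspd1 was at 388, 256, 295 and 492 CPM in WT and 187, 217, 222 and 237 CPM in KO. Hspe1 was at 247, 190, 172 and 300 CPM in WT and 72.9, 161, 147 and 120 CPM in KO. Female WT replicate 2 was highest for both, and Hspe1 but not Hspd1 was scaling-stable. The log2 fold changes were -0.72 (SE 0.24) and -0.86 (SE 0.29), while the list's median was -0.10 and the cytosolic chaperones Hspa8 and Hsp90ab1 were at -0.10 (SE 0.21) and 0.12 (SE 0.27).

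Promoter sequences of the set were searched for 12 short motifs on both strands, in the 300 bases that RefSeq places around each start (build GRCm38.p6). An entry was found for 228 of the 305 higher and 224 of the 296 lower genes. The letters AGGTCA, the half-site bound by many nuclear receptors, were present in 24.1% of the lower genes' promoters, 15.4% of the higher genes' and 15.5% of the 13614 tested genes with an entry. The lower genes with a match included Ucp1, Pparg, Adig, Acadm, Echs1, Hoxa5, Hoxb4 and Hoxc4. AACAAT, the core letters recognised by SOX proteins, were in 4.91% of lower, 10.1% of higher and 7.41% of all promoters. The TATA box letters TATAAA were in 8.04%, 10.5% and 10.2%, and CCAAT in 39.3%, 38.6% and 42% respectively. A match is only an occurrence of the letters. The 250 bases before the starts of Ucp1 (chr8:83290098-83290347, plus strand) and Adig (chr2:158502362-158502611, plus strand) are shown 5′ to 3′ as examples of lower genes of fat with the half-site, which is in capitals and begins 14 and 154 bases before the start. The third sequence is 30 bases from before the Hspe1 start (chr1:55088053-55088082, plus strand, the Hspe1 orientation), a stretch that lies within the annotated span of Hspd1. Overlapping matches on both strands to the heat shock element (TTC, 2 bases, GAA, 2 bases, TTC) are in capitals. That motif occurred in 0.893% of lower, 0% of higher and 0.566% of all promoters.
Ucp1: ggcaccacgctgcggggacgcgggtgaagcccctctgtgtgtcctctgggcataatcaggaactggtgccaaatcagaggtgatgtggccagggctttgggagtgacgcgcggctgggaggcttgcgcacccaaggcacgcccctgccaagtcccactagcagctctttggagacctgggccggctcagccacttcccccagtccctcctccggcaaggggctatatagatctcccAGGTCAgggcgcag
Adig: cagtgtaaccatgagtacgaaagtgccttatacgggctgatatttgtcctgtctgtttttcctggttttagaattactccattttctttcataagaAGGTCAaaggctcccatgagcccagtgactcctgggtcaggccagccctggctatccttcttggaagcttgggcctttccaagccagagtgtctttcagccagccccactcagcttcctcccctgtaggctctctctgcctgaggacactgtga
Hspd1 and Hspe1: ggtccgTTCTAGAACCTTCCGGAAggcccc

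Anterior Hox genes, which specify the neck and upper trunk, were another group of lower genes. Hoxa4 (Entrez gene 15401, chromosome 6, 52189682 to 52191703) was at 9.37, 7.45, 6.77 and 13.1 CPM in WT and 3.14, 2.68, 3.68 and 3.87 CPM in KO. All KO libraries lay close together at less than the lowest WT library, which was 1.75-fold above the highest KO library. The log2 fold change was -1.46 (SE 0.24), with edgeR's adjusted p at 0.454 and DESeq2's at 3.53e-05. Hoxa5 was at 21.3, 36.2, 16.8 and 21.5 CPM in WT and 9.88, 9.16, 9.605 and 12.1 CPM in KO, a log2 fold change of -1.21 (SE 0.25). Hoxc5 was at 8.88, 12.6, 8.32 and 8.01 CPM in WT and 1.63, 2.08, 5.36 and 4.63 CPM in KO, so its KO males were lower than its KO females. The highest WT libraries were female WT replicate 2 and male WT replicate 1 for Hoxa4, and male WT replicate 2 for Hoxa5 and Hoxc5.

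Of the 15 tested genes of paralog groups 1 to 5, 7 were non-overlapping and lower (46.7%, against 1.63% of all tested genes), among them Hoxa4, Hoxa5, Hoxb4, Hoxc4 and Hoxc5. All 15 log2 fold changes were below 0, with a median of -0.57. Scaling-stable members included Hoxa2, Hoxa4, Hoxa5, Hoxb4 and Hoxc5, and DESeq2 called Hoxa4, Hoxa5 and Hoxc5 lower. Without male WT replicate 1 and female WT replicate 2 the median was -0.53 and 9 of the 15 were non-overlapping. Under this removal the rule is easier to meet, and 3.82% of all tested genes were lower without overlap. None of 12 genes of groups 6 to 9 was non-overlapping, with 7 below 0 and 5 above and a median of -0.18. In groups 10 to 13 all 11 tested genes were above 0 with a median of 0.64, and 1 was non-overlapping (9.09%, against 1.68% of all tested genes that were higher). This was Hoxc10, at 25.7, 23.7, 24.9 and 26.6 CPM in WT and 32.0, 34.6, 53.0 and 28.2 CPM in KO. By sex, all 15 anterior genes were below 0 in males (median -0.95) and 10 of 15 in females (median -0.33). Groups 6 to 9 had a median of -0.67 in males and 0.32 in females. In groups 10 to 13 all 11 genes were above 0 in males (median 1.81), while 6 of 11 were below 0 in females (median -0.042), so the positive median over both sexes was not shared by the females. The values of a Hox gene in a bulk spine depend on how much of each axial level was dissected, which the labels do not give, and its part was not tested.

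**Figure D2:**
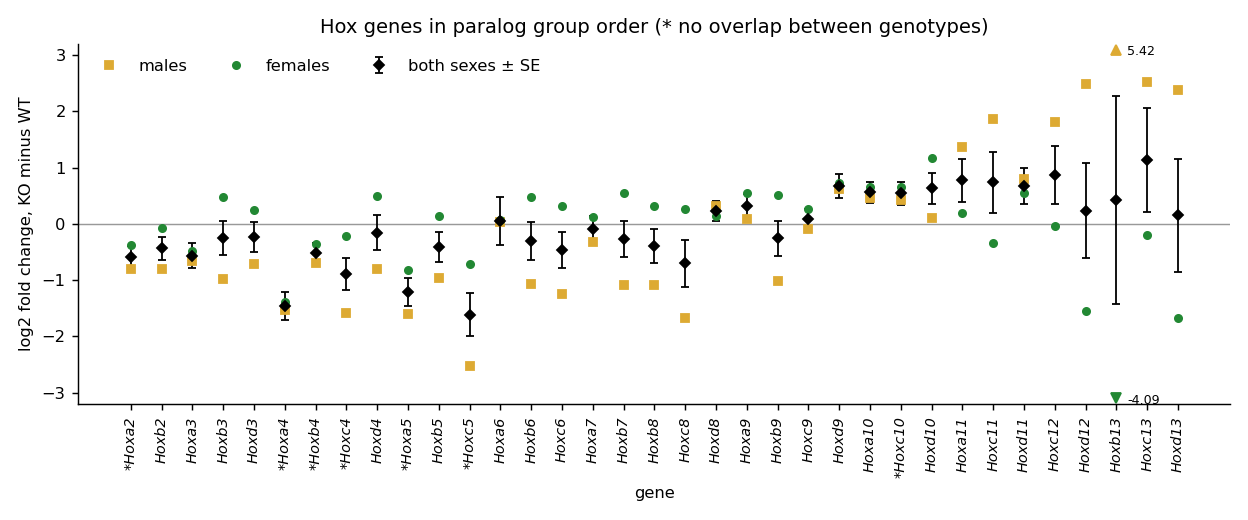
Log2 fold change, KO minus WT, of 35 Hox genes of paralog groups 2 to 13, in group order, for both sexes together (black diamonds, bars ± SE) and for males (yellow squares) and females (green circles). An asterisk marks genes without overlap between genotypes, and arrows mark the 2 Hoxb13 values outside the axis, 5.42 in males and -4.09 in females; groups 2 to 5 lie below 0 over both sexes and groups 10 to 13 above.

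Some genes were in the set together with an adjacent gene, though most of the 601 were not. Among tested genes in chromosome order, 17 adjacent pairs were both lower (33 genes) and 8 pairs both higher (16 genes). How many such pairs a set of this size would hold without any clustering was not computed, so these counts are a description. Lower pairs included Hspd1 with Hspe1, Hoxc5 with Hoxc4, Fabp4 with Fabp12, Ces1d with Ces1f, and Gstt1 with Gstt2. Several of these are tandem relatives, between which reads could have been divided in counting. Some lower pairs, such as Hspd1 with Hspe1, overlap in their annotated spans. Higher pairs included Fmn1 with Grem1 and Slc17a5 with Cd109.

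The higher genes included regulators of mineral and bone turnover. Enpp1 (Entrez gene 18605, chromosome 10, 24637914 to 24712159), the ectoenzyme that makes the mineralization inhibitor pyrophosphate, was at 32.4, 38.4, 35.3 and 31.7 CPM in WT and 67.96, 71.1, 47.8 and 63.0 CPM in KO. The WT libraries lay within a narrow range, and female KO replicate 1 was the KO library nearest to it, 1.25-fold above the highest WT library. The log2 fold change was 0.85 (SE 0.17), the smallest p in edgeR among higher genes (adjusted p = 0.510), and DESeq2 called it higher with an adjusted p of 0.0026. Ank, which exports pyrophosphate precursors from cells, was at 82.6, 82.5, 72.0 and 69.9 CPM in WT and 113, 108, 83.8 and 100.2 CPM in KO. Dmp1, an acidic matrix protein of osteocytes, was at 104, 97.6, 63.9 and 57.4 CPM in WT and 105, 134, 122 and 139 CPM in KO. In Dmp1 the males nearly touched and the females were well apart. These 3 of 12 tested osteocyte and mineralization genes (25%) were non-overlapping and higher, against 1.68% of all tested genes. In this list 0 were lower, and the median was 0.39. Mepe (0.99, SE 0.22) and Phex (0.65, SE 0.26), further genes of bone mineral control, overlapped.

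Osteoclast genes gave 3 of 15 non-overlapping members (20%, against 1.68% of all tested genes), all higher, with a list median of 0.42. Dcstamp, needed for the fusion of osteoclast precursors, was at 7.37, 6.74, 6.16 and 6.68 CPM in WT and 12.99, 13.7, 8.94 and 9.57 CPM in KO (log2 fold change 0.72, SE 0.17, DESeq2 adjusted p = 0.019). Ctsk, the collagen-degrading cathepsin K, was at 451, 326, 355 and 470 CPM in WT and 642, 724, 536 and 488 CPM in KO. Mmp9, a gelatinase of osteoclasts, was at 294, 196, 387 and 388 CPM in WT and 893, 448, 396 and 460 CPM in KO, and male KO replicate 1 stood apart. Dcstamp and Ctsk were scaling-stable and Mmp9 was not. Runx1, a transcription factor of blood and skeletal progenitors, was at 13.7, 13.1, 13.5 and 12.2 CPM in WT and 26.7, 23.1, 18.1 and 18.7 CPM in KO, so that its nearest libraries were 1.33-fold apart. None of 18 osteoblast genes was non-overlapping (median 0.29), nor was any of 12 neutrophil or 11 macrophage genes. With 1.68% higher and 1.63% lower over all tested genes, a count of 0 does not set lists of this size apart. Of the osteoblast genes 16 were above 0. Their summed CPM did not overlap, at 8411 to 11664 in WT and 11909 to 19881 in KO.

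Matrix genes were a further group. Thbs1, which encodes the adhesive glycoprotein thrombospondin 1, was at 179, 188, 210 and 120 CPM in WT and 420, 386, 264 and 369 CPM in KO, a log2 fold change of 1.04 (SE 0.23, DESeq2 adjusted p = 0.0047). Fn1, fibronectin, was at 617, 594, 817 and 593 CPM in WT and 1630, 914, 1001 and 1284 CPM in KO. Thbs2 was at 206, 164, 199 and 140 CPM in WT and 244, 332, 233 and 245 CPM in KO. In a list of 6 thrombospondin and fibronectin genes drawn up after their values were seen, these 3 were non-overlapping and the median was 0.74. Of 18 annulus fibrosus and tendon genes 3 were non-overlapping and higher, Bgn, Col12a1 and Thbs2 (16.7%, against 1.68% of all tested genes). All 18 were above 0 and the median was 0.50, while none of the 3 was scaling-stable. Among 16 matrix proteases and inhibitors the higher members were Adamts1, Adamts9, Mmp9 and Timp3 (25%), with a list median of 0.34, and none of the 4 was scaling-stable.

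Cartilage genes had mostly positive differences, and some were non-overlapping. The share was 12.5% of the cartilage collagens, 10.5% of the proteoglycans and glycoproteins and 5.88% of the chondrocyte regulators, against 1.68% of all tested genes. Chad (Entrez gene 12643, chromosome 11, 94565047 to 94569127), chondroadherin, a leucine-rich protein of cartilage matrix, was at 158, 102, 144 and 119 CPM in WT and 392, 214, 219 and 197 CPM in KO. Male KO replicate 1 was far above the other KO libraries, and each of those was still above the highest WT library. Matn3, the cartilage adaptor protein matrilin 3, was at 170, 199, 127 and 77.3 CPM in WT and 239, 217, 226 and 237 CPM in KO, so KO libraries were even and WT libraries were not. Both were scaling-stable, and they were the 2 members of 19 cartilage proteoglycan and glycoprotein genes, of which 18 were above 0 (median 0.44). Col9a1, a chain of collagen IX, was at 1054, 916, 1141 and 518 CPM in WT and 1801, 1824, 1274 and 1681 CPM in KO, the 1 member of 8 cartilage collagens, all of them above 0 (median 0.69). It was not scaling-stable. Col2a1, the main cartilage collagen, overlapped, with 3526 to 8737 CPM in WT and 7979 to 22474 CPM in KO (log2 fold change 1.16, SE 0.51, edgeR's unadjusted p = 0.048). Sox5, a partner of SOX9 in chondrocytes, was the 1 member of 17 chondrocyte regulators, and none of 16 sclerotome genes or 13 notochord and nucleus pulposus genes was non-overlapping.

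Of 21 tested genes linked to idiopathic scoliosis 2 were higher without overlap (9.52%, against 1.68% of all tested genes). Adgrg6, an adhesion receptor also known as GPR126, was at 37.7, 36.8, 31.3 and 20.3 CPM in WT and 54.6, 56.1, 42.4 and 49.4 CPM in KO (log2 fold change 0.70, SE 0.18), and it was scaling-stable. Fbn2, a fibrillin of elastic microfibrils, was at 125, 110, 131 and 79.0 CPM in WT and 144, 151, 149 and 155 CPM in KO, and it was not. The list's median was 0.24.

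**Figure D3:**
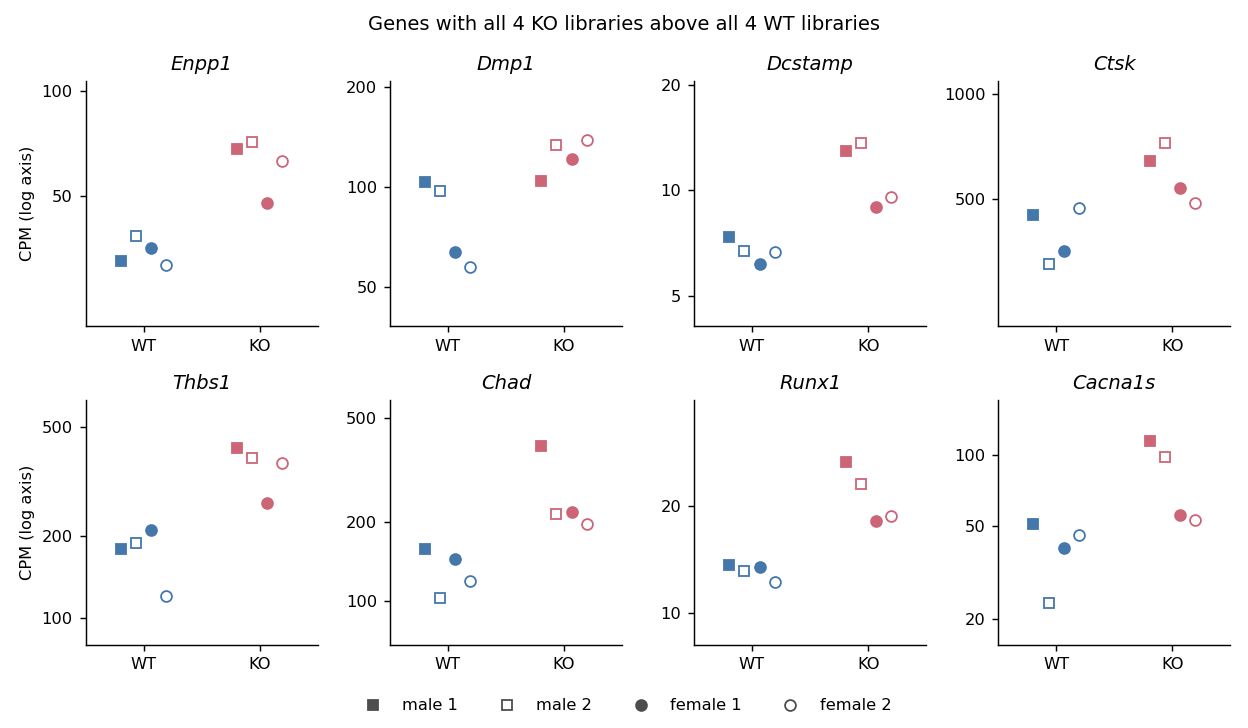
Values in CPM (log axes) of 8 genes whose 4 KO libraries lie above their 4 WT libraries, marked as for the lower genes. Enpp1 and Runx1 have closely grouped WT libraries, while in Dmp1 and Ctsk the nearest libraries of the genotypes almost touch.

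Skeletal muscle genes also had non-overlapping members on the higher side. Cacna1s (Entrez gene 12292, chromosome 1), the voltage sensor of muscle calcium release, was at 51.1, 23.4, 40.2 and 45.6 CPM in WT and 115, 98.4, 55.9 and 53.0 CPM in KO. Ryr1, the calcium release channel that it opens, was at 103, 43.8, 85.8 and 86.4 CPM in WT and 238, 149, 113 and 119 CPM in KO. In both genes the KO males were highest and male WT replicate 2 lowest. Mybpc1, a myosin binding protein of slow fibres, was at 1214, 498, 769 and 848 CPM in WT and 1610, 1866, 1343 and 1226 CPM in KO. Of 30 sarcomere and calcium release genes 4 were non-overlapping and higher (Mybpc1, Actn2, Cacna1s and Ryr1), or 13.3% against 1.68% of all tested genes. All 30 were above 0, and the median was 0.63. Summed over the list, CPM ran from 21948 to 45079 in WT and from 31899 to 55238 in KO. Without male WT replicate 1 and female WT replicate 2, which leaves male WT replicate 2 as the only male WT library, 21 of the 30 were non-overlapping and higher and the median was 1.04, while the share over all tested genes was 5.53% under the same removal. Male WT replicate 2 was low for sarcomere genes such as Actn2, at 240.4 CPM against 579 to 633 CPM in the other WT libraries. None of 13 myogenic regulators was non-overlapping, and 2 of 11 neuromuscular junction genes (18.2%) were, the acetylcholine receptor subunits Chrnb1 and Chrne, the latter at no more than 0.484 CPM.

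The higher genes with the smallest p also included genes of other roles. F5, coagulation factor V, was at 4.22, 4.15, 3.15 and 2.66 CPM in WT and 8.80, 7.02, 4.78 and 6.45 CPM in KO. Abca5, a lipid transporter of lysosomes, was at 17.4, 20.8, 18.2 and 15.5 CPM in WT and 35.4, 38.5, 22.5 and 37.2 CPM in KO. Slc7a2, a transporter of cationic amino acids, was at 34.9, 43.5, 36.3 and 35.1 CPM in WT and 66.0, 74.9, 48.1 and 63.3 CPM in KO. For all 3, and for Cd109 and Thbs1, female KO replicate 1 was the lowest KO library. Slc27a6, a fatty acid transport protein, was at 7.57 to 8.89 CPM in WT and 11.6 to 16.3 CPM in KO. Tyrp1, an enzyme of melanin synthesis, was at 3.43, 2.31, 1.42 and 1.80 CPM in WT and 4.33, 5.96, 4.96 and 3.73 CPM in KO, and it was the 1 member of 6 tested melanocyte genes, a list chosen after the values were seen. Mertk, a receptor for the uptake of dying cells, was at 11.1 to 11.9 CPM in WT and 15.1 to 18.47 CPM in KO. DESeq2 called F5, Abca5, Slc7a2, Runx1, Tyrp1, Slc27a6 and Cd109 higher, with adjusted p from 0.0038 to 0.028.

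The remaining higher genes in the gene lists mostly lay close to the boundary. Sesn1, a stress-induced sestrin in the list of FoxO and atrophy genes, was at 59.8, 48.4, 48.9 and 50.6 CPM in WT and 81.0, 162.5, 63.2 and 61.4 CPM in KO, with male KO replicate 2 far above the rest. Grem1, a secreted antagonist of bone morphogenetic proteins, was at 1.95, 2.26, 2.97 and 2.36 CPM in WT and 4.05, 3.12, 3.25 and 3.06 CPM in KO. Gja1, the gap junction protein connexin 43, was at 125, 116, 118 and 100.7 CPM in WT and 132, 161, 145 and 143 CPM in KO. Col6a3, a chain of collagen VI, the microRNA effectors Ago3 and Tnrc6b, the immediate early gene Ier3 and the Wnt receptor ligase Znrf3 were also higher without overlap, with log2 fold changes of 0.32 to 0.50. Of these, Sesn1 was scaling-stable and the others were not. Among muscle-related genes outside the lists, Asb15, an ankyrin repeat protein, was at 0.986, 0.738, 0.990 and 1.25 CPM in WT and 1.92, 2.62, 1.80 and 1.65 CPM in KO. Lists with 0 non-overlapping genes included hedgehog pathway (15 genes, median 0.29), neuron (23 genes, 0.090), Schwann cell (10 genes, 0.42), cytosolic ribosomal proteins (33 genes, -0.23), cell cycle (18 genes, -0.024), endothelial (12 genes, 0.097) and erythroid (12 genes, -0.43). Given the shares of 1.68% higher and 1.63% lower over all tested genes, a count of 0 does not set lists of this size apart. In all, 34 higher and 20 lower genes of the 601 were in a list, or 37 and 28 counting the lists drawn up after values were seen, so most of the set lies outside the groups described.

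The size of the difference was also compared between the sexes. The rule asks for both sexes to lie on one side, so it favours genes with like effects in both, and the values are a description. Of the 305 higher genes, 233 had the larger log2 fold change in males and 72 in females, with medians of 0.56 and 0.37. Of the 296 lower genes, 125 had the larger in males and 171 in females, with medians of -0.70 and -0.79. The same split over all tested genes was not computed, so these counts are not read as a trait of the set. No gene passed edgeR's sex-by-genotype test at an adjusted p of 0.05 (0 of 18104, 0%), and the smallest adjusted p among the 601 was 0.243. At an unadjusted p under 0.05 there were 17 of 601 (2.83%) against 3031 of all tested genes (16.7%). The smallest p among the 601 belonged to Hoxc5, whose male and female log2 fold changes were -2.54 (SE 0.29) and -0.71 (SE 0.27), and to its neighbour Hoxc4, with -1.58 and -0.22. Dmp1 differed the other way among higher genes, 0.25 (SE 0.23) in males and 1.11 (SE 0.23) in females. A test with 4 residual degrees of freedom that misses the threshold does not show that the sexes act alike.

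**Figure D4:**
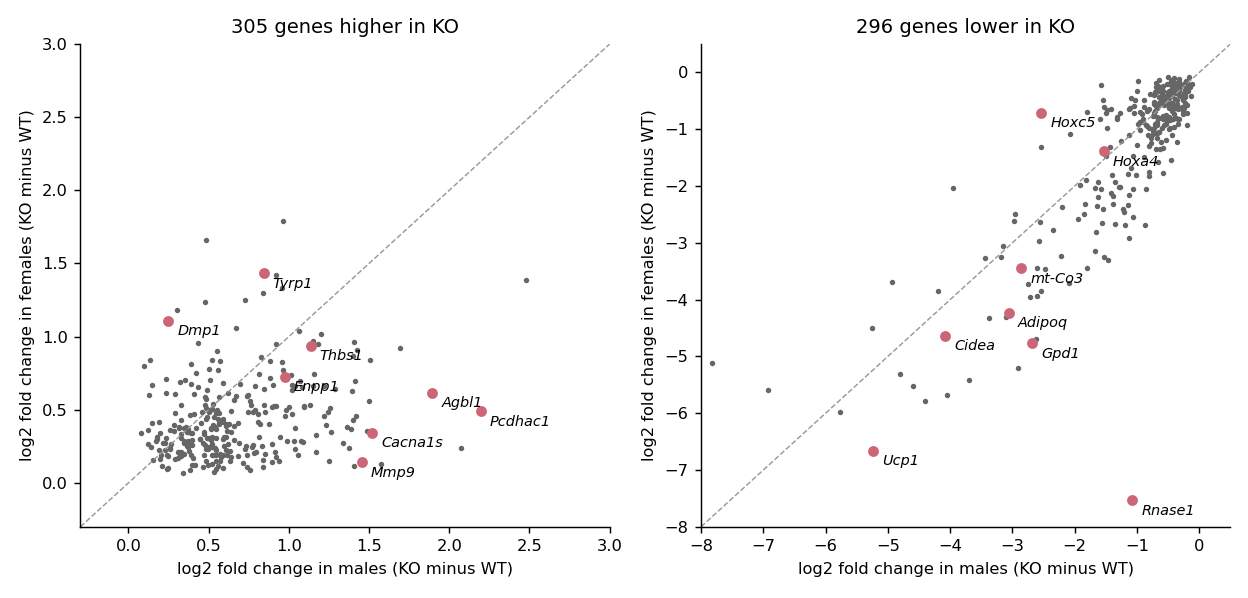
Log2 fold change in males (x axis) against females (y axis) of the 305 higher genes (left) and the 296 lower genes (right), with the dashed line marking equal size. The rule fixes the quadrant of every point, so only the distance from the line was left free: 233 higher genes lie on the male side of it and 171 lower genes on the female side. The same split over all tested genes was not computed.

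The position of single libraries within the set was uneven. Female WT replicate 2 was the highest WT library in 217 of the 296 lower genes (73.3%), against 28.9% of all tested genes. Male WT replicate 1 and female WT replicate 2 were together the 2 highest WT libraries in 163 of the lower genes (55.1%), in 44 of the higher genes (14.4%) and in 13.1% of all tested genes. Without these 2 libraries 1030 genes lay wholly above and 713 wholly below WT, including 299 of the higher and 255 of the lower genes of the sets described here. Leaving out 1 library at a time gave 406 to 774 higher and 373 to 906 lower genes, as fewer libraries make the rule easier to meet. Among higher genes the highest KO library was male KO replicate 2 in 133 and male KO replicate 1 in 105, and female KO replicate 1 was the lowest KO library in 166 (54.4%).

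Gene length separated the directions. The longest annotated transcript had a median of 5000 bases in the higher genes, 2188.5 in the lower genes and 3292 over all tested genes, and the union of exons gave 6558, 2747.5 and 4239.5 bases. The median level was 28.5 CPM for the higher, 13.5 for the lower and 16.5 for all genes. When a trend of level on transcript length was removed from each library, an alternative chosen after seeing the data, 293 higher and 213 lower genes remained under the rule, 193 and 179 of them shared. Under all 4 scalings and with this trend removed, 76 higher and 91 lower genes kept their place. Among genes named above these included Enpp1, Dmp1, Dcstamp, Ctsk, Runx1, Thbs1, Chad, Matn3, Adgrg6, Mybpc1 and Hoxc10 on the higher side and Adipoq, Cidec, Pparg, Ucp1, Cidea, Hoxa2, Hoxa4, Hoxa5, Hoxb4, Hoxc5, mt-Co3 and Hspe1 on the lower, but not Cacna1s or Ryr1. RNA quality values were not used here, and their part in the length difference was not tested.

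**Figure D5:**
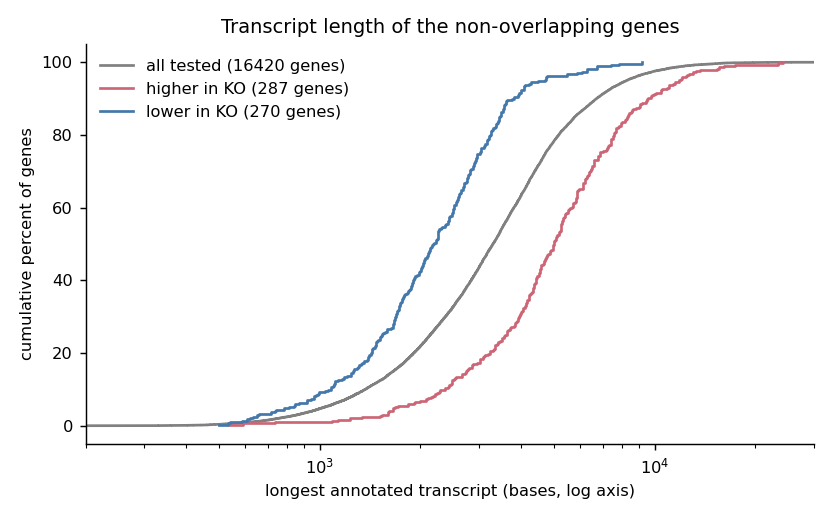
Cumulative percent of genes by length of the longest annotated transcript (log axis, bases), for all tested genes (grey), the higher genes (red) and the lower genes (blue). The curve of the lower genes lies to the left, with a median of 2188.5 bases, and that of the higher genes to the right, with a median of 5000 bases.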

How the data were processed

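RNA-seq was done on 8 spine libraries, 2 for each sex and genotype. Spines were frozen and crushed, TRIzol was used for RNA, and the TruSeq Stranded mRNA kit for sequencing libraries, per the labels' protocols. The authors deposited raw read counts per gene. The submitters' processing notes name HISAT2, featureCounts, FastQC 1.0.0 and MultiQC 1.0.0 and the mm10 build, while strand setting and annotation are not given in the sources consulted. Gene names came from RefSeq by Entrez number (25275 genes) and from GENCODE (17), and 1887 genes stayed unnamed.

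Genes were kept by edgeR's filterByExpr with a minimum count of 10 (18104 of 27179) and scaled with TMM. KO was compared with WT by edgeR's quasi-likelihood test with sex as covariate (edgeR 4.0.16, R 4.3.3, 5 residual degrees of freedom, two-sided, Benjamini-Hochberg threshold 0.05). DESeq2 1.42.0, limma 3.58.1 voom, other scalings and filters, a replicate block and leaving out libraries were alternatives. The tests were checked on simulated counts that varied less between libraries than the data, so the check does not cover the spread seen here. The median SE of a log2 fold change was 0.255 and the common biological coefficient of variation 31.1%.

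The 601 genes and the gene lists were chosen with earlier results of these data known. The genes named were Pax1, those with the smallest p, the largest difference or the widest gap in each direction among non-overlapping genes at a mean of at least 1 CPM, non-overlapping list members, and genes at the edge of the rule; overlapping list genes and neighbours in the genome were picked after their values were seen. One gene is not reported here.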

Additional observations from a re-analysis of the deposited data

Results flagged for a closer look

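In each group of 4 libraries of one genotype, the lowest and highest library were compared with the others, 194 groups in all. These covered the mitochondrial share, the sums of lists with a non-overlapping gene, and the named genes except those named only for the edge of the rule. Other list sums were not examined, such as that of the pancreas genes, at 2165 CPM in female WT replicate 1 and 6.58 to 11.6 CPM in the other WT libraries. A library stood apart in 13 of the 194 groups (6.7%), and chance gives about 1 in 20. Male WT replicate 2 stood apart 5 times. It was high for Slc7a2 at 43.5 CPM (others 34.9 to 36.3) and for the Wnt pathway ubiquitin ligase Znrf3 at 8.65 CPM (others 8.10 to 8.14). The same library was low for the sarcomere genes Myom2 at 57.5 CPM (others 158 to 165) and Actn2 at 240.4 CPM (others 579 to 633), and for the summed heat shock list at 3444 CPM (others 4107 to 4224). Male KO replicate 1 was high for the matrix genes Chad at 392 CPM (others 197 to 219), Bgn at 1029 CPM (others 667 to 690) and Mmp9 at 893 CPM (others 396 to 460). Thbs2 was high in male KO replicate 2 at 332 CPM (others 233 to 245). Female KO replicate 1 was low for Znrf3 at 8.998 CPM (others 10.7 to 10.9), and female KO replicate 2 for the summed Wnt list at 407 CPM (others 417 to 419). Male WT replicate 1 was low for Tnrc6b, a microRNA effector, at 43.6 CPM (others 49.6 to 50.7). Female WT replicate 1 was high for Rnase1 at 33.3 CPM (others 0.173 to 0.332).

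Among lists with a non-overlapping gene, the summed CPM of 2 lay on opposite sides in the sexes. Lists without such a gene were not screened in this way. Among those, the neuron, notochord and nucleus pulposus, Hox groups 6 to 9 and kidney sums were lower in KO males and higher in KO females. The endothelial sum was higher in KO males and lower in KO females. For FoxO and atrophy genes the log2 ratio of KO to WT was 0.85 in males and -0.26 in females, a difference of -1.11, and for immediate early genes it was 0.80 and -0.41, a difference of -1.21. These differences between the sexes were not tested.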

How the results depend on the processing

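edgeR called 0 genes under each scaling, filter and design tried and without each single library, while DESeq2 called 141. Non-overlapping lower genes numbered 162 with library totals only, and without male WT replicate 1 and female WT replicate 2 together there were 1030 higher and 713 lower genes. Leaving out 1 library gave 406 to 774 higher and 373 to 906 lower genes, the most lower genes without male WT replicate 2 and the most higher without female KO replicate 1, and a Pax1 log2 fold change of 0.091 to 0.39. Replicate numbers did not pair the samples (correlations of replicate differences -0.531 to 0.178), and with the replicate block Pax1 was at 0.22 and edgeR called 0 genes. For 75 named genes 1572 alternative values were computed: 1544 kept direction and side of the threshold, and 28 passed it, all in DESeq2. Depth, genotype and transcript length moved together, and 4 libraries a genotype limit the precision.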
